A study of Mus musculus with 11 samples.

Results

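The MHC class I and peptide transport genes were a set of 10 genes, picked from a table of 28222 genes in 11 RNA-seq libraries of cultured mouse mesenchymal stem cells (MSCs). They were chosen by name, as H2-K1, H2-D1, H2-Q4, H2-Q6, H2-Q7, H2-T22, H2-T23, B2m, Tap1 and Tap2, with their levels in these libraries already known. Their levels and differences are therefore given as a description and without p-values. All 10 were found by their Ensembl identifiers and all 10 passed the filter on low counts in every comparison. Young mice were 3 to 5 months of age and old mice 18 to 22 months, and 2% oxygen was used throughout the culture. The labels placed 4 young libraries in batch A, 2 young with 2 old ones in batch B, and 3 old ones in batch C. Age could thus be separated from batch within batch B alone, while age and batch changed together between batch C old and batch A young. The strain and sex of the mice, the isolation of the cells, what a batch stands for, and whether the libraries of a group came from separate mice or cultures are not given in the sources used here, so that p-values measure the spread between these libraries, which may be technical.

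MHC class I molecules show fragments of the proteins made inside a cell to T cells and natural killer cells. Each consists of a heavy chain, encoded by an H2 gene in the mouse, the light chain beta-2-microglobulin, and a peptide that the proteasome cuts in the cytosol and the transporter TAP carries into the endoplasmic reticulum. H2-K1 and H2-D1 encode the classical, highly variable heavy chains that are found on most cells. The genes of the Q and T regions encode non-classical heavy chains with less variation, among them the Qa-2 antigens of the Q region and Qa-1, which is the product of H2-T23 and is read by inhibitory receptors on natural killer cells. Transcription of class I genes is raised by interferons and by NF-kappa-B, and MSCs are known for low immunogenicity and for dampening immune cells.

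In batch B the 3 Q genes were 6.25-fold (H2-Q6), 3.63-fold (H2-Q4) and 3.06-fold (H2-Q7) more abundant in old than in young MSCs, whereas the other 7 genes lay between −0.13 and 0.47 on the log2 scale. Levels are given as CPM, in which counts are divided by the scaled total of each library, and fitted log2 fold changes of old against young are given with their standard error (SE). The log2 fold change in batch B was 2.64 (SE 0.34) for H2-Q6, 1.86 (SE 0.37) for H2-Q4 and 1.61 (SE 0.32) for H2-Q7. The same 3 genes were again higher in old MSCs when batch C old was set against batch A young, and H2-K1, H2-D1, H2-T22, Tap1 and Tap2 were lower. The Q genes were also the least abundant of the 10, with between 7 and 178 counts per library, and their levels are correspondingly less precise.

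All members lie on chromosome 17 in the annotation of GRCm38, with the exception of B2m on chromosome 2. Tap1 at chr17:34187553-34197225 and Tap2 at chr17:34203527-34216321 lie close to H2-K1 at chr17:33996017-34000347. H2-D1 at chr17:35262730-35267499 is followed by H2-Q4 at chr17:35379617-35385290, H2-Q6 at chr17:35424850-35430055 and H2-Q7 at chr17:35439155-35443773. H2-T23 at chr17:36029773-36032855 and H2-T22 at chr17:36037128-36042747 come last, and B2m is at chr2:122147686-122153083. All 10 are annotated as protein-coding genes.

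The promoters of the classical and the Q genes are shown because these 5 genes have related sequences. Their fold changes of old against young nevertheless differed in size in batch B, and in direction between batch C old and batch A young. The promoter of B2m is shown because its protein pairs with all of their products. The windows run from 250 bases before to 50 bases after the annotated start and were taken from RefSeq on GRCm38.p6, which held a window for 9 of the 10 members and none for Tap2. They are chr17:34000298-34000597 on the minus strand for H2-K1, 1 of its 2 listed starts, and on the plus strand chr17:35262844-35263143 for H2-D1, chr17:35379367-35379666 for H2-Q4, chr17:35424600-35424899 for H2-Q6, chr17:35438905-35439204 for H2-Q7 and chr2:122147437-122147736 for B2m. Capitals mark matches, on either strand, to the letters GGGGANTCC of a kappa-B-type element or GAAANNGAA of an interferon-type element, where N is any base.
H2-K1: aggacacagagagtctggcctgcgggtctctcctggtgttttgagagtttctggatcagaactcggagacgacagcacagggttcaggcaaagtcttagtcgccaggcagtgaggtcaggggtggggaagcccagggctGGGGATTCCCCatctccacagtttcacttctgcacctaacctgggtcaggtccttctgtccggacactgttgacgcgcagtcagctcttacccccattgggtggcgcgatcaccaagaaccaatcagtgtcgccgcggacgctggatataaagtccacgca
H2-D1: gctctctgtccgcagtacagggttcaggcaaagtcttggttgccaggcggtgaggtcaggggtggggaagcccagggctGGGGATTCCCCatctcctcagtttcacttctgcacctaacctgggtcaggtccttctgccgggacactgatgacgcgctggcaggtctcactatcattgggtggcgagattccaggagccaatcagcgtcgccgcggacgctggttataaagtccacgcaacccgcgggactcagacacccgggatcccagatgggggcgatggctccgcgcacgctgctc
H2-Q4: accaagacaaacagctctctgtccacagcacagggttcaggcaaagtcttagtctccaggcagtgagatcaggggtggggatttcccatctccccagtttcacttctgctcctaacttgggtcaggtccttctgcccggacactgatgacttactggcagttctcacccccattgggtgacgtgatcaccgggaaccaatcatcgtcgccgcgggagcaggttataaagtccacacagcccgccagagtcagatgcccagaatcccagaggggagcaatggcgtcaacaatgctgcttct
H2-Q6: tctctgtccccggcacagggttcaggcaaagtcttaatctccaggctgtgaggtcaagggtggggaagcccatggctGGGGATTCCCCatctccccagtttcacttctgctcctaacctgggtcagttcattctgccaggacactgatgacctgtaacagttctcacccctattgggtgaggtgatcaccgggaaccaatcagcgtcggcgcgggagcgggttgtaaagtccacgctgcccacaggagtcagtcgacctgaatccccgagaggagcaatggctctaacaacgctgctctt
H2-Q7: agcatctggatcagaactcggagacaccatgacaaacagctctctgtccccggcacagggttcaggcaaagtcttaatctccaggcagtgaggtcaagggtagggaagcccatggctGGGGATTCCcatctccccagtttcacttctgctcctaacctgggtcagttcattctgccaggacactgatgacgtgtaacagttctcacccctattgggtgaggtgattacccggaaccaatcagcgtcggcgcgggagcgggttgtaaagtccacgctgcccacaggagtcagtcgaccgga
B2m: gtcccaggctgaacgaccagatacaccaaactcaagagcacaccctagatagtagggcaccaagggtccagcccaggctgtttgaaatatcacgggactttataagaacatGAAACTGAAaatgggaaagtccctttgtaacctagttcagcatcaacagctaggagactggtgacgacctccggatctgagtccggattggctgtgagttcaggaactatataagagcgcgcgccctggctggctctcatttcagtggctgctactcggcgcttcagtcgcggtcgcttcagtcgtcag

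The kappa-B-type letters were found in H2-K1, H2-D1, H2-Q6 and H2-Q7 and in 1.19% of 32851 promoter windows of the same length. Matches on the 2 strands overlapped in H2-K1, H2-D1 and H2-Q6. The letters GGGGANTCC were not found in the windows of H2-Q4, H2-T22, H2-T23, B2m or Tap1. The window of H2-Q4 holds the related stretch ggggatttccc, which these letters do not match. The interferon-type letters were found in H2-T22, H2-T23 and B2m and in 8.56% of all windows. The windows of H2-K1, H2-D1, H2-Q4, H2-Q6 and H2-Q7 all hold the stretch tttcacttc, which these letters do not match. Its share of all windows was not counted. The Y box core CCAAT was present in all 9 members with a window and in 37.4% of all windows. The letters TTCNNNGAA, found in 8.3% of all windows, and TGACGTC, found in 3.21%, matched no member. In the best alignment without gaps, over a limited range of shifts, H2-Q6 and H2-Q7 shared 76.6% of 261 bases, H2-Q6 and H2-D1 75.8% of 298, and H2-K1 and H2-D1 73.3% of 240. Other pairs shared less. The shown window of H2-K1 shared 33.7% of 297 bases with H2-Q4 and 30.2% of 288 with H2-Q6, near the 31.3% of 297 with Tap1. The window at the other listed start of H2-K1 shared 67.3% of 251 bases with H2-Q4 and 62.7% of 252 with H2-Q6. The kappa-B-type letters were thus present in H2-Q6 and H2-Q7 and in H2-K1 and H2-D1, and absent from H2-Q4. A link between these letters and the differences between old and young MSCs was not tested. A match of letters is a description and not a binding site. A window without a match can hold a variant that the letters do not cover.

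Because class I genes are copies of each other, the uniqueness of each transcript was measured in windows of 50, 100 and 150 nucleotides. Of the 50-nucleotide windows of the longest transcript, 36.9% in H2-Q4, 34.97% in H2-Q6 and 28.5% in H2-Q7 were also present in another annotated gene, which decreased to 10.46%, 5.99% and 6.87% at 150 nucleotides. At 50 nucleotides H2-Q4 shared 15.6% with the opposite-strand gene Gm11131, which overlaps it, and 9.85% with H2-Q6. Its shared windows of 150 nucleotides were in Gm11131 alone and not in another class I gene. H2-T22 shared most, with 58.5% at 50 nucleotides and 29.4% at 150 nucleotides. At 50 nucleotides these were shared mainly with H2-T10 and with the antisense gene A930015D03Rik, and at 150 nucleotides with A930015D03Rik alone. The shares at 50 nucleotides were 8.11% in H2-K1, 14.3% in H2-D1, 16.0% in H2-T23 and 12.6% in Tap2. B2m shared none and Tap1 0.65%. H2-Q6 shared 13.9% of these windows with H2-Q7 and 12.3% with H2-Q4, so that counts of single Q genes are uncertain. It is not given how the authors' counting treated such reads or whether it used strand. Opposite-strand genes overlap H2-Q4 (Gm11131), H2-T22 and H2-T23 (A930015D03Rik), B2m (Patl2), Tap1 (Psmb9) and Tap2 (Gm20496 and Gm15821).

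**Figure D1:**
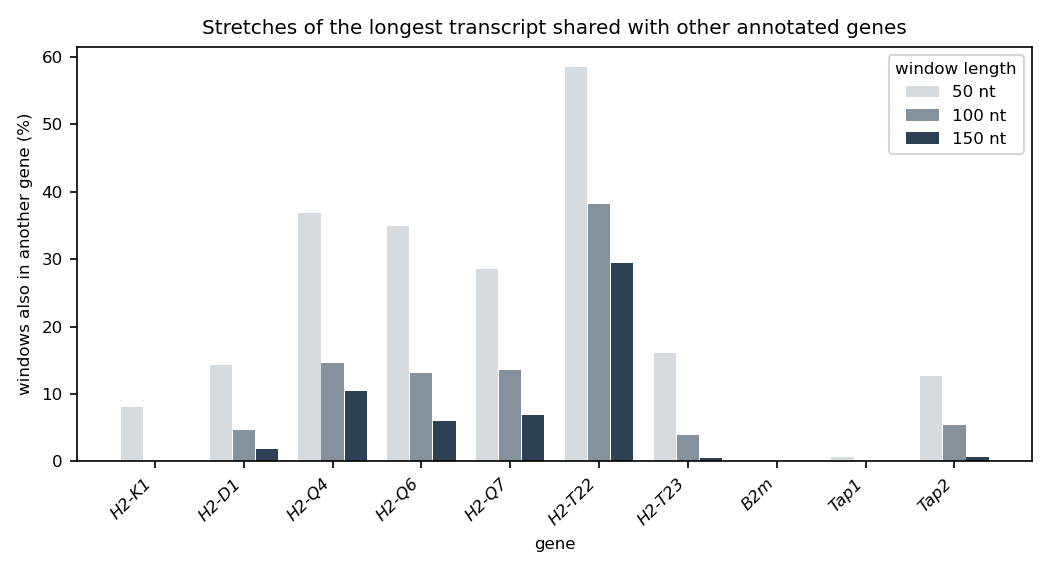
Percentage of windows of 50, 100 or 150 nucleotides (nt) in the longest transcript of each gene that also occur in another annotated gene. H2-T22 has the tallest bars, from 58.5% to 29.4%, and the Q genes drop from 36.9%, 34.97% and 28.5% at 50 nt to 10.46%, 5.99% and 6.87% at 150 nt.

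Levels of different genes were compared as mean CPM per kilobase of the longest transcript over the 11 libraries. On this scale B2m was by far the most abundant at 333, followed by H2-D1 at 80.8 and H2-K1 at 55.5. H2-T22 had 19.1, H2-T23 9.40, Tap1 8.05 and Tap2 7.02. The Q genes formed the lower end, with 2.03 for H2-Q4, 1.18 for H2-Q6 and 0.84 for H2-Q7. The ranges of H2-D1 and H2-K1 over libraries overlapped, although H2-K1 had fewer counts than H2-D1 in each library, with 0.48 to 0.72 times as many. The ranges also overlapped between H2-T23, Tap1 and Tap2 and between the 3 Q genes, and the order within these groups is not fixed by the data. B2m transcripts were counted 0.82 to 0.99 times as often as H2-K1 and H2-D1 together in batch A young, 1.26 and 1.33 times in batch B young, 1.00 and 1.04 times in batch B old, and 1.14 to 1.18 times in batch C old.

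The Q genes were described first. H2-Q6, a gene of the Qa-2 family, had 0.83, 1.52, 1.16 and 1.22 CPM in batch A young and 0.57 and 0.48 CPM in batch B young. In old MSCs H2-Q6 had 2.96 and 3.74 CPM in batch B and 4.77, 4.58 and 5.15 CPM in batch C. All 5 old libraries thus lay above all 6 young libraries. The share of all genes with such a separation over the 11 libraries was not counted, and nothing is read from the separation of the Q genes. The underlying counts were 11 and 7 in batch B young against 44 and 56 in batch B old, and 14 to 18 in batch A young against 70 to 81 in batch C old. Between batch C old and batch A young the log2 fold change was 2.11 (SE 0.23).

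H2-Q4, a non-classical heavy chain of the same region, had 2.60, 3.21, 3.14 and 3.90 CPM in batch A young and 0.73 and 2.38 CPM in batch B young. Old MSCs had 4.65 and 6.21 CPM in batch B and 8.89, 11.7 and 10.59 CPM in batch C. Again no old library overlapped with a young library, but the 2 young libraries of batch B lay far apart, at 14 and 35 counts. The log2 fold change of 1.86 in batch B became 1.18 without young replicate 1 and 2.88 without young replicate 2. It was 1.76 (SE 0.17) between batch C old and batch A young.

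H2-Q7, which encodes the major Qa-2 antigen, had 1.77, 1.01, 2.40 and 2.27 CPM in batch A young and 1.67 and 1.23 CPM in batch B young. Old MSCs had 4.24 and 4.74 CPM in batch B and 5.71, 6.35 and 7.47 CPM in batch C. As with the other two, the lowest old library was higher than the highest young library. Young libraries of batches A and B overlapped. Batch C old and batch A young differed by 1.86 (SE 0.24) on the log2 scale.

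**Figure D2:**
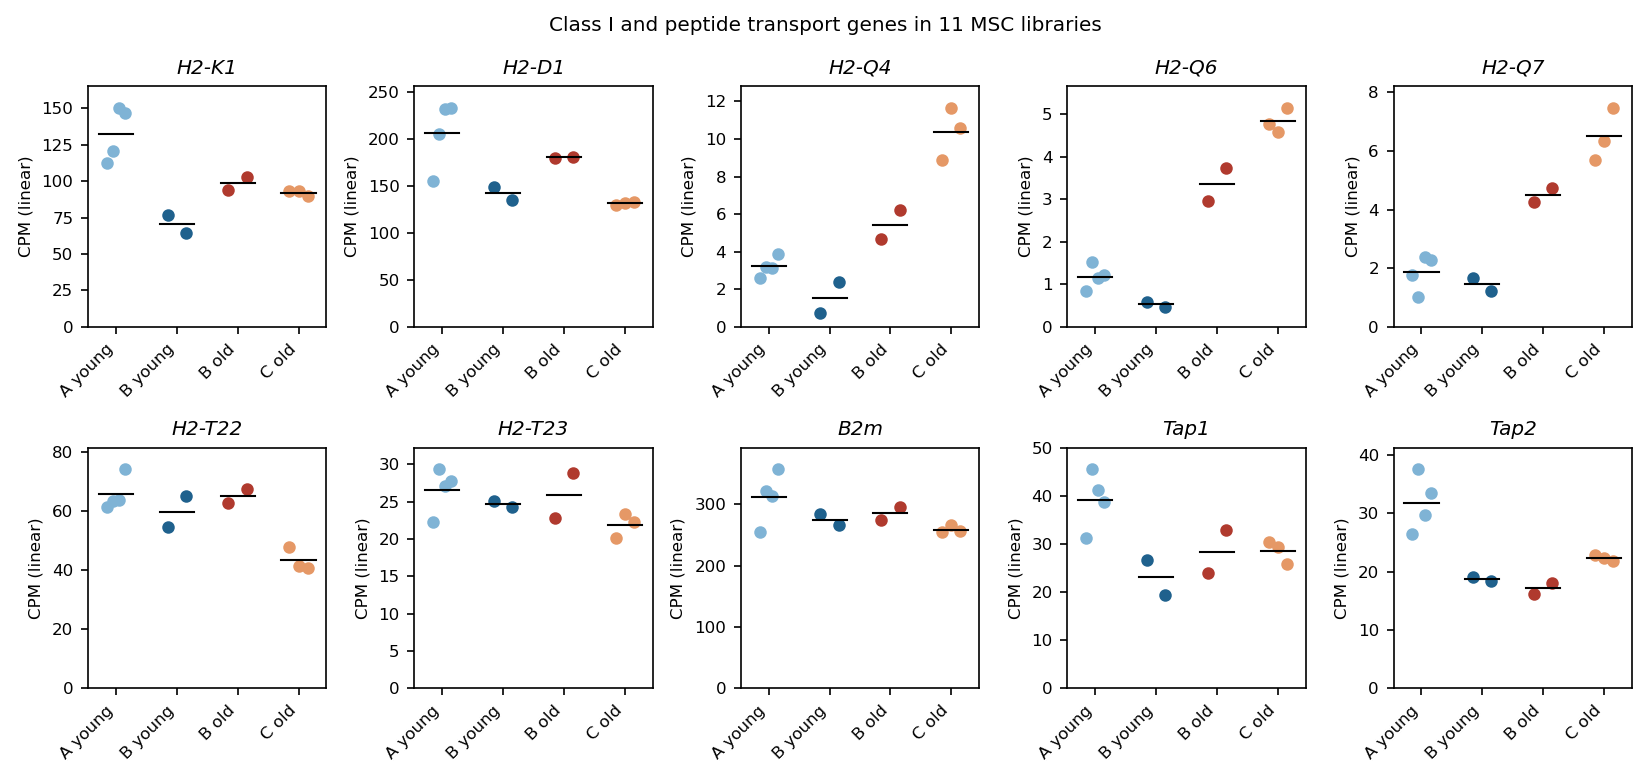
CPM (linear axis from 0) of each gene in every library, with 1 point per library and a line at the group mean, for batch A young (n = 4), batch B young (n = 2), batch B old (n = 2) and batch C old (n = 3). H2-Q4, H2-Q6 and H2-Q7 are the panels in which all old libraries lie above all young libraries. The share of all genes that separate in this way was not counted.

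The remaining Q genes of the table were looked at after these values had been seen. H2-Q5 had at most 0.49 CPM in young MSCs, 0.40 and 0.40 CPM in batch B old and 1.12 to 1.18 CPM in batch C old. In batch B its counts summed to only 3 in young and 12 in old MSCs. H2-Q5 also held 5.99% of the 50-nucleotide windows of H2-Q6 and 8.20% of those of H2-Q7. Counts of H2-Q5 summed to 17 in batch A young and 53 in batch C old. As most came from the group where it was high, no p-value is given for it. Its log2 fold change was 2.08 (SE 0.78) in batch B and 1.92 (SE 0.40) between batch C old and batch A young. H2-Q1 went the other way in the latter comparison, at −0.65 on the log2 scale (SE 0.16, adjusted p = 0.00372 with edgeR) and 0.22 (SE 0.23, adjusted p = 0.683 with edgeR) in batch B. H2-Q10 had 41 counts in all libraries together and was not tested. When the 6 Q genes of the table were summed, which avoids the division of reads between them, the log2 fold change was 1.25 (SE 0.16) in batch B and 1.101 (SE 0.11) between batch C old and batch A young.

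The classical heavy chains took another course. H2-K1 had 112, 120, 150 and 146 CPM in batch A young and 77.0 and 64.7 CPM in batch B young. Old MSCs had 94.1 and 103 CPM in batch B and 93.2, 92.9 and 89.9 CPM in batch C. Thus the old libraries of batch B lay above the young libraries of their own batch and below all those of batch A. The log2 fold change was 0.47 (SE 0.14) in batch B and −0.46 (SE 0.10) between batch C old and batch A young.

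H2-D1 had 156, 206, 232 and 233 CPM in batch A young and 149 and 135 CPM in batch B young. Old MSCs had 180 and 181 CPM in batch B and 129, 132 and 133 CPM in batch C. Batch C old was lower than every other library, while batch B old was higher than batch B young and overlapped with batch A young. The log2 fold change was 0.34 (SE 0.15) in batch B and −0.59 (SE 0.12) between batch C old and batch A young. For both classical genes, the direction of the difference between old and young MSCs therefore depended on which batches were set against each other.

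The Q genes were also expressed relative to the classical genes within each library, a measure that does not depend on the scaling of libraries. H2-Q4, H2-Q6 and H2-Q7 together made up 1.72% to 1.91% of the counts of these 5 genes in batch A young (mean 1.82% ± 0.11, SD, n = 4) and 1.30% and 2.00% in batch B young. In old MSCs the share was 4.15% and 4.91% in batch B and 8.003%, 9.11% and 9.44% in batch C. The 95% Wilson intervals, which cover counting error only, were 1.00% to 1.68% and 1.56% to 2.57% in batch B young and 3.59% to 4.79% and 4.32% to 5.58% in batch B old. The share was higher in every old library than in every young library, and batch C old was higher than batch B old. As these genes were chosen with their values known, nothing is read from this. With all 6 Q genes of the table the share was 3.57% to 4.22% in batch A young and 3.28% and 3.83% in batch B young. In old MSCs it was then 5.72% and 6.70% in batch B and 9.85% to 11.2% in batch C. The sum of H2-K1 and H2-D1 was itself lower in batch C old than in batch A young, at −0.54 (SE 0.11) on the log2 scale.

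**Figure D3:**
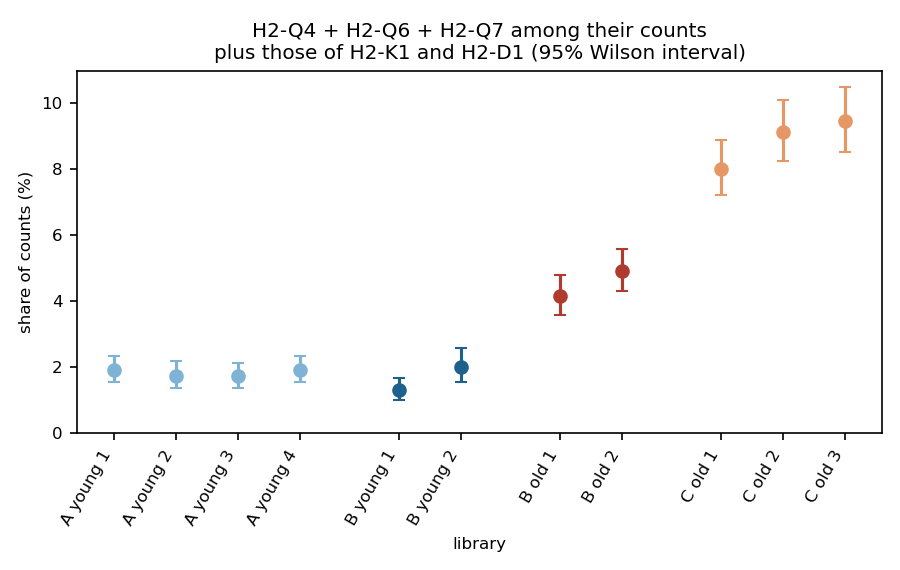
Counts of H2-Q4, H2-Q6 and H2-Q7 as a percentage of the counts of these genes plus H2-K1 and H2-D1 in each library (linear axis from 0), with 95% Wilson intervals. Young libraries lie between 1.30% and 2.00%, batch B old at 4.15% and 4.91%, and batch C old between 8.003% and 9.44%.

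Of the T region genes, H2-T22 encodes a non-classical heavy chain that gamma-delta T cells can recognise. H2-T22 had 61.2, 63.4, 63.7 and 74.0 CPM in batch A young, 54.5 and 65.0 CPM in batch B young, 62.8 and 67.3 CPM in batch B old and 47.8, 41.4 and 40.7 CPM in batch C old. Batch C old lay below all other libraries, and young and old overlapped in batch B. The log2 fold change was 0.12 (SE 0.13) in batch B and −0.54 (SE 0.09) between batch C old and batch A young. H2-T23 had 22.2 to 29.3 CPM in batch A young, 25.1 and 24.2 CPM in batch B young, 22.8 and 28.8 CPM in batch B old and 20.1 to 23.4 CPM in batch C old. Groups overlapped in both comparisons, with log2 fold changes of 0.07 (SE 0.15) in batch B and −0.22 (SE 0.11) between batch C old and batch A young.

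B2m, the light chain of all class I molecules, had 254, 322, 313 and 357 CPM in batch A young and 284 and 266 CPM in batch B young. Old MSCs had 275 and 297 CPM in batch B and 255, 266 and 257 CPM in batch C. The groups overlapped in both comparisons of age. B2m had a log2 fold change of 0.05 (SE 0.13) in batch B and −0.21 (SE 0.10) between batch C old and batch A young, values smaller in size than those of each Q gene.

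Tap1 and Tap2 encode the subunits of the peptide transporter. Tap1 had 31.4, 45.6, 41.4 and 38.8 CPM in batch A young, 26.7 and 19.5 CPM in batch B young, 23.98 and 33.0 CPM in batch B old and 30.4, 29.5 and 25.97 CPM in batch C old. Its groups overlapped in batch B, and batch C old lay below batch A young. The log2 fold change of Tap1 was 0.29 (SE 0.19) in batch B and −0.39 (SE 0.12) between batch C old and batch A young. Tap2 had 26.4, 37.5, 29.6 and 33.5 CPM in batch A young, 19.1 and 18.4 CPM in batch B young, 16.2 and 18.0 CPM in batch B old and 22.9, 22.4 and 21.8 CPM in batch C old. It was the only one of the 10 with a log2 fold change below 0 in batch B, of −0.13 (SE 0.15), and both of its old libraries were below both young libraries. Between batch C old and batch A young its log2 fold change was −0.44 (SE 0.11).

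**Figure D4:**
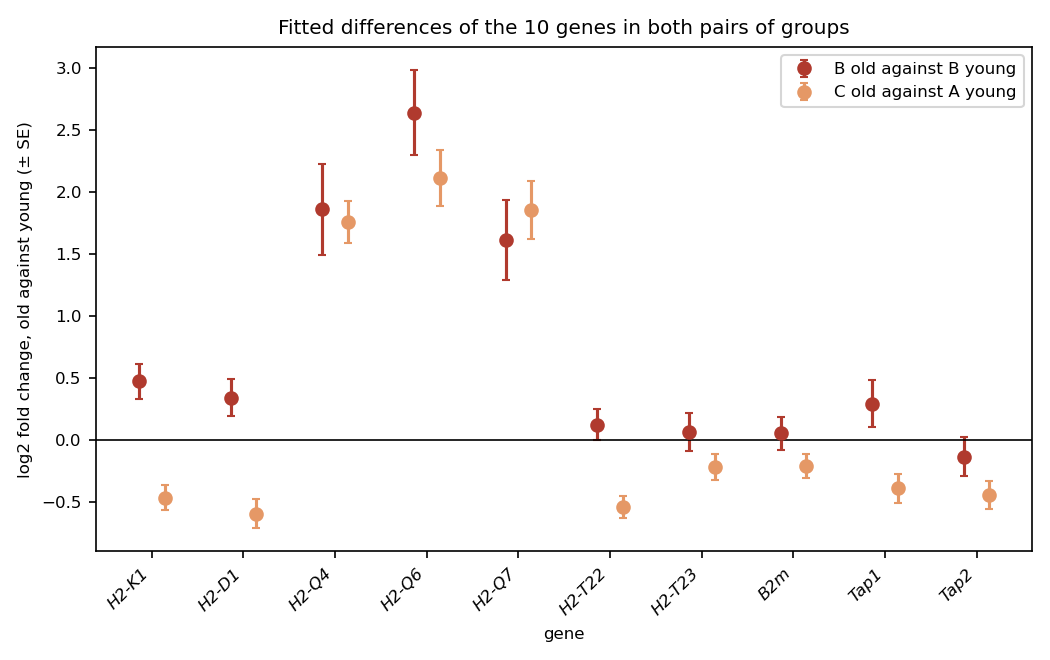
Fitted log2 fold changes of old against young MSCs with SE (vertical axis) for the 10 genes, in batch B and between batch C old and batch A young, where age and batch change together. H2-Q4, H2-Q6 and H2-Q7 are above 0 in both, from 1.61 to 2.64, and H2-K1 and H2-D1 are above 0 in batch B and below 0 in the other.

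Over the set of 10, the median log2 fold change in batch B was 0.32, compared with 0.0044 over all 16132 genes tested, and 9 of 10 values were above 0. The 3 Q genes passed an adjusted p threshold of 0.05 upwards and none of the 10 downwards, where 0.694% of all genes passed upwards and 1.54% downwards. Old and young libraries did not overlap in 5 members that were higher and 1 that was lower in old MSCs, while 19.2% and 20.6% of all genes did so. Between batch C old and batch A young, 3 members passed upwards and 5 downwards, against 32% and 31.9% of all genes, and the median was −0.30. The groups did not overlap in 3 members upwards and 5 downwards, against 29.5% and 35% of all genes. As the genes were chosen with these values known, nothing is read from these counts.

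The levels of the members in different batches at the same age were set side by side as well, again as a description. In young MSCs 4 of 10 passed the threshold as lower in batch B than in batch A, namely H2-K1 (log2 fold change −0.88), Tap1 (−0.74), Tap2 (−0.74) and H2-D1 (−0.52), where 8.71% of all genes did so, and all 10 values were below 0. H2-Q6 was at −1.105 (SE 0.45), H2-Q4 at −1.06 (SE 0.40) and H2-Q7 at −0.33 (SE 0.38), on few counts. In old MSCs 4 of 10 passed as higher in batch C than in batch B, namely H2-Q4 (0.93), H2-Q7 (0.52), H2-Q6 (0.52) and Tap2 (0.38), where 32.1% of all genes did so. H2-T22 (−0.59) and H2-D1 (−0.46) passed as lower, where 32.6% of all genes did so. Nothing is read from these counts either. The young libraries of batch B enter both the comparison with batch A young and the age difference in batch B. These differences are therefore not independent, and their sizes are not weighed against each other.

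The genes around class I presentation were then followed in batch B, in lists adjusted over all genes with edgeR. Of the 6 tested genes of peptide loading and trimming none passed in either direction (median log2 fold change 0.02). The most abundant were Calr, a chaperone of heavy chains, at 0.13 (SE 0.12, adjusted p = 0.63), and Pdia3 at 0.13 (SE 0.13, adjusted p = 0.676). Of 5 genes of the immunoproteasome and its activator, 2 rose with age in batch B. Psmb8 had 3.18 and 3.68 CPM in young and 8.15 and 7.48 CPM in old MSCs (1.19, SE 0.26, adjusted p = 0.0238), and Psmb9 had 1.67 and 0.95 CPM in young and 3.17 and 4.14 CPM in old MSCs (1.44, SE 0.35, adjusted p = 0.0407). Both encode interferon-inducible catalytic subunits that alter the cut peptides. Between batch C old and batch A young both were lower instead, Psmb8 at −0.76 (SE 0.22, adjusted p = 0.00771) and Psmb9 at −0.74 (SE 0.24, adjusted p = 0.0154). Both calls in batch B were lost when batch B was fitted alone (adjusted p = 0.0667 and 0.132) and without either old library or young replicate 1 of batch B. That of Psmb9 was lost whichever library of batch B or C was left out, with adjusted p between 0.056 and 0.194 in edgeR. Of the 3 constitutive catalytic subunits none passed in batch B (median 0.25, with Psmb6 at 0.27 (SE 0.16, adjusted p = 0.417) and Psmb5 at 0.19 (SE 0.14, adjusted p = 0.553)), while all 3 passed as lower between batch C old and batch A young, as did 31.9% of all genes.

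Of 15 genes that regulate class I transcription none passed in batch B (median 0.06). Jak1, a kinase of interferon receptors, was at −0.12 (SE 0.12, adjusted p = 0.647), and Ifnar1, a receptor chain for type I interferons, at −0.04 (SE 0.11, adjusted p = 0.876). Of the 15, 6 passed as higher and 3 as lower between batch C old and batch A young, where 32% and 31.9% of all genes did so. Nlrc5, the transactivator of class I genes, was looked at after its values had been seen. It had 1.94 to 3.17 CPM in batch A young, 1.51 and 1.498 CPM in batch B young, 2.49 and 3.07 CPM in batch B old and 7.54 to 10.8 CPM in batch C old. Its log2 fold change was 0.88 (SE 0.31, adjusted p = 0.155 with edgeR) in batch B and 1.97 (SE 0.20, adjusted p = 3.33e-06 with edgeR) between batch C old and batch A young. Of 25 tested interferon-stimulated genes 24 had values above 0 (median 0.49), but a single one passed, namely Ifit1, which binds viral RNA. Ifit1 had 0.99 and 0.89 CPM in young and 2.49 and 7.15 CPM in old MSCs (2.35, SE 0.49, adjusted p = 0.0179), and the old libraries lay far apart. Without batch B old replicate 2 it was at 1.39 and no longer passed, and the call was also lost without batch B young replicate 1 and with batch B alone (adjusted p = 0.114 and 0.0527). Between batch C old and batch A young 6 of the 25 passed as higher and 8 as lower (median −0.06), where 32% and 31.9% of all genes did so, and Ifit1 was higher (0.85, SE 0.24, adjusted p = 0.00866). Ifi27, the most abundant of the list, was at 0.21 (SE 0.15, adjusted p = 0.508) in batch B, and Ddx58, a sensor of viral RNA, at −0.04 (SE 0.15, adjusted p = 0.915).

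Of 11 tested genes among other class I and class I-like genes, none passed in batch B (median 0.13). Fcgrt, which encodes the neonatal Fc receptor, was at −0.41 (SE 0.14, adjusted p = 0.162), and Hfe, a regulator of iron uptake, at −0.32 (SE 0.15, adjusted p = 0.308). Of 6 tested genes of the class II pathway 1 rose, namely H2-DMb1, a chain of the peptide exchanger H2-DM, from 8.39 and 8.65 CPM in young to 15.4 and 15.6 CPM in old MSCs (0.86, SE 0.20, adjusted p = 0.0339). The call was lost when batch B was fitted alone (adjusted p = 0.0865), without either old library or young replicate 1 of batch B, and whichever library of batch C was left out (adjusted p between 0.0516 and 0.0606 in edgeR). H2-Ab1, a class II chain, was at 0.64 (SE 0.22, adjusted p = 0.159), and H2-DMa, the partner of H2-DMb1, at −0.07 (SE 0.34, adjusted p = 0.945). The whole class II list remained low, at 20.97 to 35.8 summed CPM over all libraries.

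**Figure D5:**
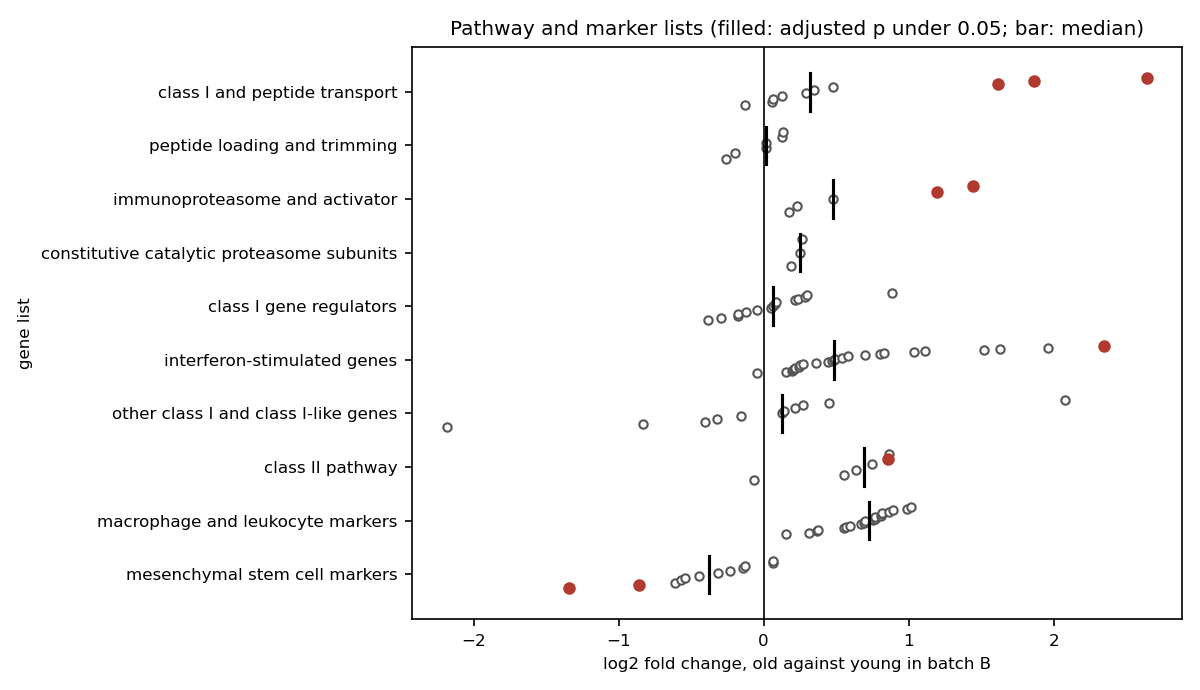
Log2 fold changes of old against young MSCs in batch B (horizontal axis) for each tested gene of the lists, with 1 circle per gene, filled where the adjusted p was under 0.05, and a bar at the list median. The 3 filled circles of the class I and peptide transport row are H2-Q7, H2-Q4 and H2-Q6 at 1.61, 1.86 and 2.64, and macrophage and leukocyte markers lie above 0 without a filled circle.

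Markers of other cells moved with some of these differences. All 20 macrophage and leukocyte markers had values above 0 in batch B (median 0.73), none of which passed, and 19 of 20 passed as lower between batch C old and batch A young (median −3.10), where 31.9% of all genes did so. Their summed level was 947 to 2098 CPM in batch A young, 539 and 1098 CPM in batch B young, 1103 and 1568 CPM in batch B old and 212 to 250 CPM in batch C old. None of the 20 was at 0 throughout a group. The most abundant were Lyz2, a lysozyme of myeloid cells, at 0.87 (SE 0.23, edgeR adjusted p = 0.0699) in batch B, and Csf1r, the receptor for macrophage colony-stimulating factor, at 0.37 (SE 0.40, edgeR adjusted p = 0.694). The Q genes were thus at their highest in batch C, where these markers were at their lowest, while in batch B both had higher values in old MSCs. The classical genes, Psmb8 and Psmb9 had higher values with these markers in batch B and lower values with them between batch C old and batch A young. The part of such cells in these differences was not tested, and in bulk RNA fewer cells of a type and less RNA per cell cannot be told apart. Lymphocyte markers summed to at most 0.65 CPM, with Cd3e and Cd3g at 0 in batches A and B, endothelial markers to 1.71 to 9.89 CPM and erythroid markers to 0 to 2.96 CPM. No gene of these 3 lists passed in batch B, where Cd79a was at −1.19 (B cells), Tek and Kdr at 0.32 and −1.46 (endothelium), and Hbb-bs and Hba-a1 at 0.60 and 0.54 (red cells).

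The labelled cell type was checked with 12 markers of MSCs, among them Pdgfra and the collagen genes Col1a1 and Col1a2. The sum over all 12, at 39482 to 102171 CPM, consisted mostly of the collagen genes. Without these, the other 10 markers summed to 4666 to 5547 CPM in batch A young, 4822 and 4584 CPM in batch B young, 3781 and 4072 CPM in batch B old and 6066 to 6125 CPM in batch C old. Of the 12, 5 passed as higher and 6 as lower between batch C old and batch A young, where 32% and 31.9% of all genes did so. In batch B Pdgfra fell with a log2 fold change of −0.86 (SE 0.15, adjusted p = 0.0059 with edgeR) and Nt5e with −1.34 (SE 0.25, adjusted p = 0.00932 with edgeR), but both rose in batch C old against batch A young, at 0.62 (SE 0.10, adjusted p = 0.00011 with edgeR) and 0.54 (SE 0.13, adjusted p = 0.00358 with edgeR). Both calls in batch B were lost without its old replicate 1. Libraries had 11969336 to 20315934 counts in total. The 2 young libraries of batch B differed in many genes, and without batch B young replicate 2 the number of genes past the threshold in the age comparison was 2007 instead of 360.

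Finally, the genes outside the set with the most similar course over the 11 libraries were sought by the distance to the median course of the 10 members, as the root mean square in log2 CPM. The 4 closest were Pheta1 (0.13), Rnf122 (0.14), Pheta2 (0.14) and Smim1 (0.14). Pheta1 and Pheta2 encode related proteins of endosomal traffic. The members other than the Q genes lay at distances to that median from 0.15 for B2m to 0.30 for Tap2. The 3 Q genes stood apart at 0.92 for H2-Q7, 1.02 for H2-Q4 and 1.07 for H2-Q6. The median was formed from these same members, so that nearness to it is partly built in. H2-T22, H2-T23 and B2m lay about as far from it (0.28, 0.19 and 0.15) as from their own mean (0.27, 0.17 and 0.15).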

How the data were processed

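Polyadenylated RNA of cultured MSCs was sequenced in 11 libraries. The deposited data are raw, whole-number counts per Ensembl gene, which the authors did not normalise. The assembly was mm10/GRCm38 in the submitters' processing notes. The aligner, the counting program and the use of strand are not given in the sources used here. Of 28222 identifiers, 28179 were matched to GENCODE M21. The 43 others were kept without a name.

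Differences in counts were tested in R 4.3.3 by edgeR 4.0.16 (quasi-likelihood test), after filterByExpr with a minimum count of 5 and TMM scaling (factors 0.889 to 1.16). P-values were two-sided, adjusted over all genes (Benjamini-Hochberg) and held against 0.05. The age comparison used all 11 libraries with batch as covariate, so that its coefficient comes from batch B, while its SE draws on the spread of all libraries. In a chi-square comparison per gene, the pairs of batch B lay further apart (48.51 young, 22.08 old) than those of batch A (5.379 to 17.35) and batch C (3.07 to 4.854). The SE can thus understate the spread within batch B. Batches A and B were compared in 6 young, B and C in 5 old, and C old with A young in 7 libraries. SE is the log2 fold change divided by the root of F. CPM values used the TMM-scaled totals. A prior count of 2 was added for log2 CPM. A level of 3 counts is 0.148 to 0.251 CPM. No pair of libraries of the same group was a duplicate by a chi-square comparison, and pairs across groups were not compared. Tests were checked on simulated counts.

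The members and lists were chosen with earlier results of these data known. All 10 members are given, and from each list the genes past the threshold in the age comparison, at most 5, and otherwise the 2 most abundant. Of the genes most similar to the members in course, 4 are named, and 1 is not reported here. Alternatives were limma-trend (limma 3.58.1), DESeq2 1.42.0, other scalings and filters, the replicate number as a block, each library left out, no batch term, batch B alone and sums over copies. Sums over copies in the other comparisons were added after the data were seen.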

Additional observations from a re-analysis of the deposited data

Results flagged for a closer look

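H2-K1 and H2-D1 differed between old and young MSCs in opposite directions in the 2 pairs of groups. The log2 fold change of H2-K1 was 0.47 in batch B, where both old libraries were above both young libraries, and −0.46 between batch C old and batch A young, where all 3 old libraries were below all 4 young libraries. That of H2-D1 was 0.34 in batch B and −0.59 between batch C old and batch A young, again without overlap in either. The difference between the pairs of groups was not tested, and in the second pair age and batch cannot be told apart.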

How the results depend on the processing

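H2-Q6 passed the threshold in batch B in all 20 alternatives, H2-Q4 in 17 and H2-Q7 in 16, and all 3 were above 0 in every one of them. The number of members that passed, 3 in batch B, was 4 with DESeq2 and without a filter (H2-K1 in addition), 1 with batch B alone and 1 to 3 with a library left out. H2-Q6 alone passed without batch B old replicate 2 or without batch B young replicate 1, and H2-Q4 and H2-Q6 without batch B old replicate 1. Between batch B and batch A young it was 4, and 2 to 4 with a library left out (2 without batch B young replicate 2, namely H2-K1 and H2-Q4). Between batch C and B old it was 6, and 4 to 6 with a library left out, with 4 without batch C old replicate 3, and H2-Q6 passed in 6 and H2-Q7 in 8 of 12 alternatives. H2-D1 passed in 6 of 13 between batch B and batch A young. Between batch C old and batch A young it was 8, and 7 to 10 with a library left out. Scaling by total counts gave 5 there, moved the median of all genes from 0.02 to 0.31, and turned B2m to 0.08 and H2-T23 to 0.08. Between batch C and B old it moved this median to 0.22 and turned B2m to 0.05 and H2-K1 to 0.09. With total counts, 44.8% of called genes were higher with age in batch B instead of 31.1%, 66.4% instead of 51.9% in batch B against A, 62.9% instead of 49.6% in batch C against B and 72.5% instead of 50.1% in batch C old against batch A young. Without the batch term 3 members still passed, but H2-K1 was at −0.23 and H2-D1 at −0.28. The members were chosen with their values known, and the alternatives reuse the same libraries. Nothing is therefore read from these counts of members.

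Of the genes in the other lists 6 passed in batch B. This number was 12 with DESeq2, 30 without a filter, 13 without the batch term, 2 with batch B alone, and 2 to 15 with a library left out (2 without either batch B old library, 15 without batch B young replicate 2). Without the batch term Psmb8 was at −0.028, Psmb9 at −0.16 and Pdgfra at 0.14. The number of all genes that passed was 360, and was 640 with DESeq2, 1094 without a filter, 2641 without the batch term and 84 to 2007 with a library left out. The causes were not tested.

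With the replicate number as a block (replicate block), 3 members passed in batch B, 0 between batch B and A young, 4 between batch C and B old and 8 between batch C old and batch A young, and Psmb9 and H2-DMb1 no longer passed in batch B. Libraries of the same number did not deviate together, with a correlation across genes of 0.037 in batch B, and the numbers were not regarded as pairs. With copies summed, single H2-K, H2-D and H2-Q genes have no value, and no count of members is given. Low counts of the Q genes limit the precision of their levels.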
